A study of Mus musculus with 6 samples.

Results

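The collagens are the family of triple-helical proteins that build the fibrils, networks and sheets of the extracellular matrix. The collagen genes were taken as every gene whose symbol has the form Col, number, a, number, which gave 44 of the 34745 genes in the deposited table. They fell into 11 fibrillar genes, 9 genes of fibril-associated collagens with interrupted helices (FACIT), 6 basement membrane genes (type IV), 6 beaded filament genes (type VI), 4 transmembrane genes, 3 short-chain network genes, 2 multiplexin genes and 3 others. The rule reads only the gene symbol, but the family was picked for study with earlier results of these data known.

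The study measured messenger RNA of mouse liver by RNA-seq. It had 3 Sox9f/f libraries, numbered 5, 6 and 8, and 3 libraries labelled Sox9HKO, numbered 9, 10 and 12. Every mouse had received the MCD diet for 6 weeks, a diet poor in methionine and choline that is used to produce steatohepatitis, so both groups share the diet and no group on normal chow was analysed here. Sox9f/f mice carry Sox9 alleles flanked by recombination sites and served as controls. The labels do not spell out HKO, and they give neither the Cre driver, the cells it acts in, nor the age or sex of the animals. They also do not say that each library came from a separate animal, so p-values measure the spread between these libraries.

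Collagen chains carry glycine at every first position of a repeated triplet, which lets 3 chains wind into a helix. Fibrillar collagens assemble outside the cell into banded fibrils, while type IV chains form the mesh of basement membranes and type VI chains form beaded microfilaments around cells. In injured liver, scar is rich in collagens I and III, which are made mainly by activated hepatic stellate cells and portal fibroblasts.

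The glycine repeat was read from the GENCODE M21 coding sequences (GRCm38) as runs in which every triplet of codons begins with a glycine codon (GGN). All 44 collagen genes held a run of at least 23 such triplets, with a median of 58.5, against a median of 2 and a maximum of 81 in the 21191 other genes with a coding sequence. The fibrillar genes had the longest runs, from 216 triplets in Col24a1 to 344 in Col3a1, with 338 in Col1a1. Runs were shorter in the network formers, between 39 and 66 triplets in type IV and between 37 and 87 in type VI, and they reached 30 in both multiplexins. The 20 codons shown for Col1a1 open its unbroken run, and the 20 shown for Col4a1 contain the end of its longest run, where a spacing of 4 codons breaks the repeat; capitals mark glycine codons, 7 in the first stretch and 6 in the second.
Col1a1, chromosome 11, codons 168 to 187: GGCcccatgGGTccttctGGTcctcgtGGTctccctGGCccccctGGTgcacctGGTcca
Col4a1, chromosome 8, codons 151 to 170: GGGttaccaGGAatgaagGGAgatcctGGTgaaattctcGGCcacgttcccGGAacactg

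Library depth lay between 22826962 and 27286864 counts. Sox9, the gene named in the genotype, had 127, 138 and 143 counts in the Sox9f/f libraries and 411, 491 and 626 in the libraries labelled Sox9HKO. Its log2 fold change was 1.73 ± 0.18 (SE, edgeR quasi-likelihood test with Benjamini-Hochberg adjustment, unadjusted p = 1.17e-05, adjusted p = 0.0830). The alternative test DESeq2 gave an adjusted p of 7.88e-12, and the groups did not overlap. Sox9 thus went against the label if HKO names a knockout, and the files do not say which part of the gene a deletion would remove. The name "libraries labelled Sox9HKO" is therefore kept, and every direction below is a direction between the labels. Alb, the albumin gene of hepatocytes, had means of 76715 and 60379 CPM (counts scaled to library size with TMM factors), as the liver label says. Sox9HKO replicate 12 stood apart from its group, with a chi-square per degree of freedom of 92.0 and 91.2 to the other two, against 34.2 to 37.6 for all other pairs within a group. Values without it stand beside the results for the named genes or are gathered after the chain ratios.

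Of the 44 collagen genes, 25 had enough counts to be tested and 19 did not. Col2a1, Col9a1, Col10a1, Col19a1 and Col26a1 had 0 counts in every library; collagens II, IX and X are best known from cartilage. The other 14 had at most 28 counts in any library, the highest being Col8a1 in Sox9HKO replicate 9. They were Col4a3, Col6a4, Col6a5, Col6a6, Col8a1, Col9a2, Col9a3, Col11a1, Col17a1, Col20a1, Col22a1, Col23a1, Col25a1 and Col28a1. Among the 25 tested, Col4a6, Col7a1, Col8a2 and Col24a1 did not reach the filter's count level in all 3 Sox9f/f libraries, so they may have entered through the group in which they were higher, and counts are given with and without these 4.

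Fitted levels of the chains of collagens I, III and VI and of Col5a1 and Col5a2 were 1.62 to 2.66 times as high in the libraries labelled Sox9HKO. Col18a1, Col4a1 and Col4a2, the collagens of highest FPKM (length-scaled level), had ratios of 0.881, 1.07 and 1.02. No collagen gene passed an adjusted p under 0.05 in edgeR's quasi-likelihood test, and neither did any other gene (0% of 14137 tested in either direction). At an unadjusted p under 0.05, 12 of the 25 tested collagens were higher in the libraries labelled Sox9HKO and 0 were lower, against 9.74% higher and 10.1% lower among all genes tested. DESeq2, run as an alternative test on the same counts, called 9 collagens higher at an adjusted p under 0.05 and 0 lower, against 2.31% and 1.97% of all genes; limma voom called 0 genes of all tested. In 10 collagens all 3 libraries labelled Sox9HKO lay above all 3 Sox9f/f libraries and in 0 the reverse held, against 12.2% and 14.3% of all genes. The log2 fold change was above 0 in 21 of 25 (84.0%; 50.5% of all genes), with a median of 0.69 beside 0.00 for all genes and a range of -0.29 to 1.64. Over the 21 collagens past the count level in every Sox9f/f library, 11 stood at an unadjusted p under 0.05 and 9 did not overlap, with the same median of 0.69. These counts describe the list, and no test was made of the list as a whole. In whole liver RNA, more cells of a type and more RNA per cell cannot be told apart.

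**Figure D1:**
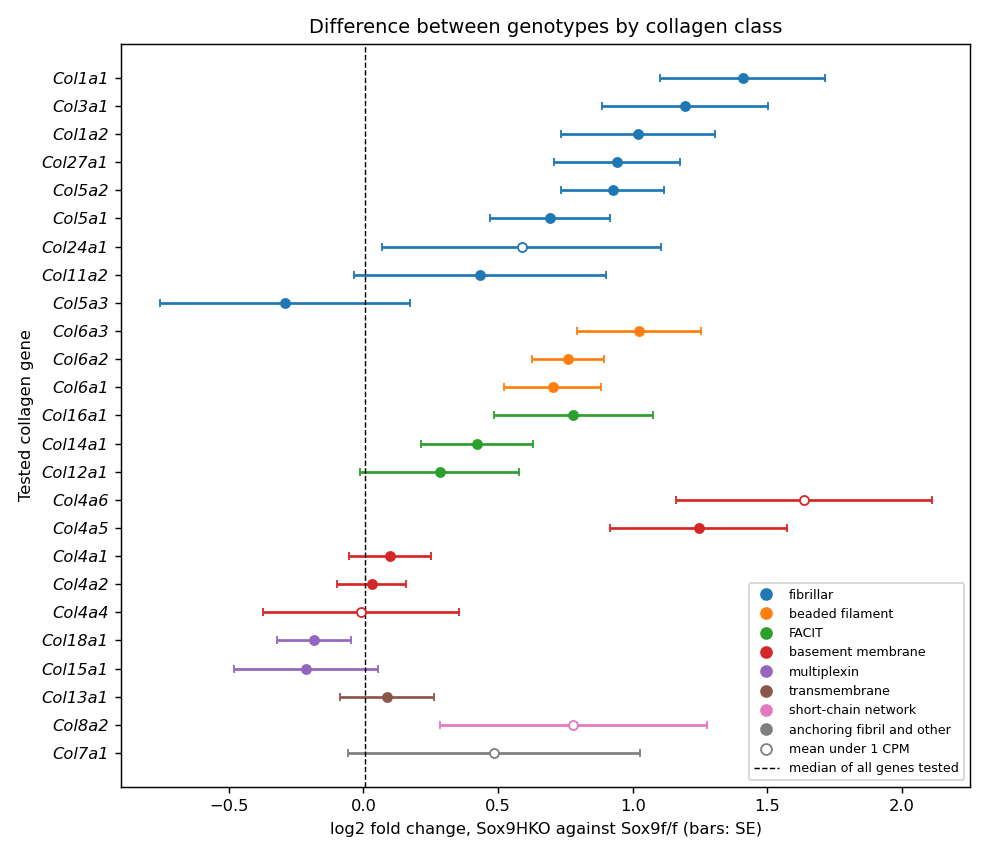
Log2 fold change (libraries labelled Sox9HKO over Sox9f/f) of the 25 tested collagen genes, grouped by class; points are edgeR estimates, bars are ± 1 SE, open points have a mean under 1 CPM, and the dashed line is the median of all genes. The values run from -0.29 to 1.64, with 21 above 0, and no gene passed an adjusted p under 0.05 in edgeR.

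The fibrillar collagens had the highest class median among classes with more than one tested gene, 0.93 over 9 tested of 11. At an unadjusted p under 0.05, 6 were higher, 5 of them called by DESeq2 and 5 without overlap between the groups. Summed over the class, fibrillar collagens took 203, 119 and 152 CPM in Sox9f/f replicates 5, 6 and 8, and 325, 402 and 216 CPM in Sox9HKO replicates 9, 10 and 12. The groups did not overlap, with a ratio of means of 1.99, but replicates 5 and 12 lay close together; without replicate 12 the ratio was 2.30. Without Col24a1, which did not reach the count level in every Sox9f/f library, the class still had 6 genes at p below 0.05 of 8 tested.

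Col1a1 encodes the alpha 1 chain of collagen I, the main collagen of scar (chr11:94936224-94953042 in the deposited table). It had 32.3, 16.4 and 20.7 CPM in the Sox9f/f libraries and 64.3, 79.4 and 40.2 CPM in those labelled Sox9HKO. Every library of the second group lay above the first, so the groups did not overlap. The means were 23.1 ± 8.23 and 61.3 ± 19.7 CPM (SD, n = 3 each). Its log2 fold change was 1.41 ± 0.31, with an unadjusted p of 0.00179 and an adjusted p of 0.140 in edgeR, against 8.83e-04 in DESeq2. Without Sox9HKO replicate 12 it was 1.63 (edgeR adjusted p = 0.112).

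Col1a2 encodes the alpha 2 chain, which pairs with 2 alpha 1 chains in collagen I. It had 45.9, 24.3 and 31.4 CPM against 65.6, 91.9 and 48.5 CPM. The groups did not overlap, though Sox9f/f replicate 5 and Sox9HKO replicate 12 nearly met. The log2 fold change was 1.02 ± 0.29 (edgeR unadjusted p = 0.00730, adjusted p = 0.152; DESeq2 adjusted p = 0.0201), and 1.21 without Sox9HKO replicate 12.

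Col3a1, the chain of the thin reticular fibrils that accompany collagen I, had 71.3, 35.0 and 49.0 CPM against 118, 158 and 79.4 CPM. Every library labelled Sox9HKO lay above every Sox9f/f library. The log2 fold change was 1.19 ± 0.31 (edgeR unadjusted p = 0.00477, adjusted p = 0.151; DESeq2 adjusted p = 0.00712), and 1.41 without Sox9HKO replicate 12.

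The collagen V chains join collagen I fibrils and set their diameter. Col5a2 had 8.31, 6.31 and 6.66 CPM against 13.7, 15.8 and 11.0 CPM, with no overlap. Its log2 fold change was 0.93 ± 0.19 (edgeR unadjusted p = 0.00132, adjusted p = 0.139; DESeq2 adjusted p = 0.00358). Col5a1 had 22.1, 13.6 and 15.2 CPM against 30.6, 30.5 and 21.1 CPM, so Sox9HKO replicate 12 lay below Sox9f/f replicate 5 and the groups overlapped. Its log2 fold change was 0.69 ± 0.22 (edgeR unadjusted p = 0.0148, adjusted p = 0.175; DESeq2 adjusted p = 0.0736), and 0.845 without Sox9HKO replicate 12. Genes on the opposite strand overlap Col5a1, and because the sources used here do not say whether reads kept their strand, part of its counts could belong to them; 18 of the 44 collagen genes have such a neighbour.

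Col5a3, which encodes the third collagen V chain, did not share that direction. It had 18.9, 18.0 and 21.7 CPM in Sox9f/f and 24.6, 18.2 and 5.01 CPM in the libraries labelled Sox9HKO. Sox9HKO replicate 12 alone was far below the rest, and the sign of the difference rested on it: the log2 fold change was -0.29 ± 0.46 with it (edgeR adjusted p = 0.752) and 0.13 without it. Col11a2, better known from cartilage, depended on the same library, with 1.28, 2.62 and 3.00 CPM against 2.02, 2.06 and 5.27 CPM. Its log2 fold change was 0.43 ± 0.47 with Sox9HKO replicate 12 and -0.19 without it.

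Col27a1, a fibrillar collagen with a shorter glycine run of 217 triplets, had 2.79, 2.16 and 3.61 CPM against 5.60, 5.60 and 5.23 CPM. The 3 higher libraries agreed closely, and the groups did not overlap. The log2 fold change was 0.94 ± 0.23 (edgeR unadjusted p = 0.00371, adjusted p = 0.144; DESeq2 adjusted p = 0.0208). Col24a1, the other member with a short run, stayed under 1 CPM, with a log2 fold change of 0.59 ± 0.52.

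**Figure D2:**
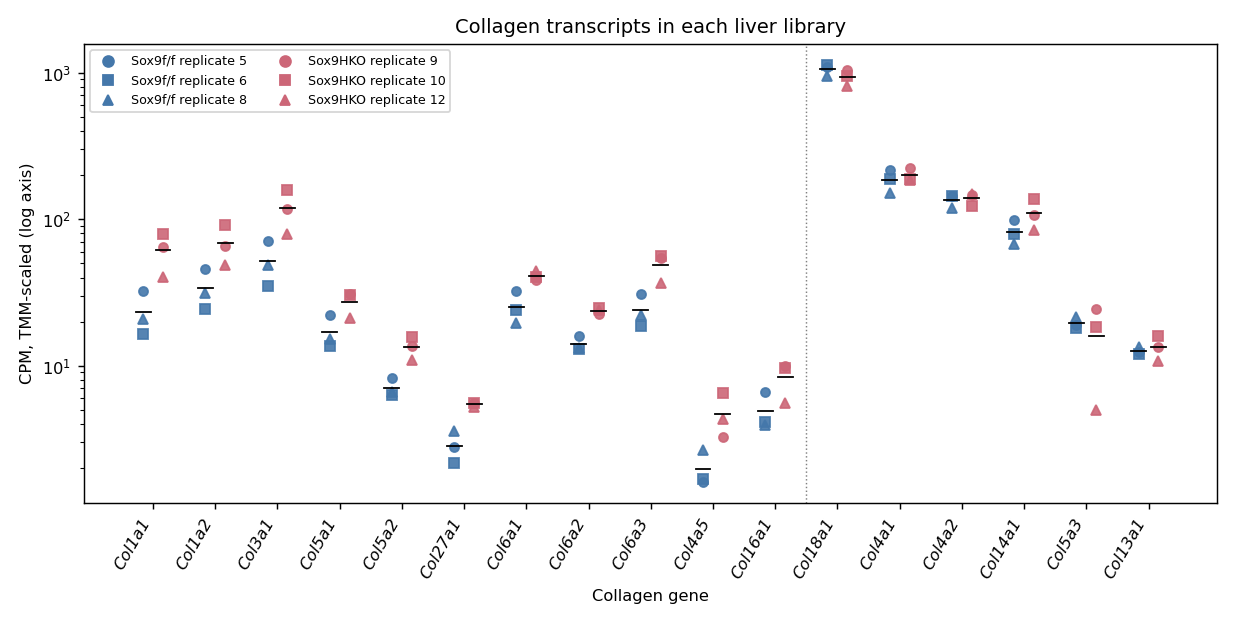
CPM of the named collagen genes in each of the 6 libraries (log axis); points are single libraries, coloured by label, and black lines are group means. Genes left of the dotted line had a mean of at least 1 CPM and an unadjusted p under 0.05; those on the right did not. Col1a1 lay between 16.4 and 32.3 CPM in Sox9f/f and between 40.2 and 79.4 CPM in the libraries labelled Sox9HKO.

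All 3 tested type VI genes had higher values in the libraries labelled Sox9HKO, with unadjusted p-values below 0.05 in edgeR and calls by DESeq2. These chains form the microfilaments that lie between cells and the fibrillar matrix. Col6a1 had 32.1, 23.8 and 19.6 CPM against 38.6, 40.3 and 44.2 CPM, with a log2 fold change of 0.70 ± 0.18 (edgeR unadjusted p = 0.00465, adjusted p = 0.151; DESeq2 adjusted p = 0.0276). Col6a2, its neighbour on chromosome 10, had 16.0, 13.0 and 13.1 CPM against 22.5, 24.8 and 24.2 CPM, with a log2 fold change of 0.76 ± 0.13. Its edgeR unadjusted p of 4.89e-04 was the smallest among the collagens (adjusted p = 0.139; DESeq2 adjusted p = 8.46e-04). In neither gene did the groups overlap. Col6a3, which encodes the longest of the 3 chains tested, had 31.1, 18.7 and 22.4 CPM against 54.1, 56.0 and 36.4 CPM. Its groups did not overlap either, and its log2 fold change was 1.02 ± 0.23 (edgeR unadjusted p = 0.00210, adjusted p = 0.144; DESeq2 adjusted p = 0.00400). Sox9HKO replicate 12 was the highest library of all in Col6a1 and the lowest of its group in Col6a3. Summed, the class took 79.4, 55.7 and 55.2 CPM against 115, 122 and 105 CPM, a ratio of 1.80, or 1.87 without replicate 12.

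Among the basement membrane collagens 5 of 6 were tested, with a median of 0.10, 2 at an unadjusted p under 0.05 and 1 called by DESeq2. Without Col4a6, which did not reach the count level in every Sox9f/f library, the median of 4 genes was 0.06, with 1 at p below 0.05 (Col4a5, also the DESeq2 call). Col4a1 and Col4a2, the abundant pair transcribed from a shared promoter region on chromosome 8, had differences smaller than their error. Col4a1 had 217, 189 and 152 CPM against 222, 189 and 187 CPM (log2 fold change 0.10 ± 0.15). Col4a2 had 145, 144 and 119 CPM against 146, 123 and 148 CPM (0.03 ± 0.13). Both pairs of groups overlapped, and both signs turned when single libraries were left out. The 2 genes overlap each other on opposite strands only between positions 11312805 and 11312826. Reads in that short stretch cannot be assigned with certainty if they did not keep their strand.

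Col4a5, a chain of the type IV network of kidney and other specialised basement membranes, had 1.60, 1.69 and 2.64 CPM against 3.25, 6.48 and 4.36 CPM. The groups did not overlap, with a log2 fold change of 1.25 ± 0.33 (edgeR unadjusted p = 0.00543, adjusted p = 0.151; DESeq2 adjusted p = 0.0239). Col4a6, its head-to-head neighbour on chromosome X, had 0.183, 0.231 and 0.446 CPM against 0.709, 0.774 and 1.23 CPM, also without overlap. It had the largest log2 fold change of the 25, 1.64 ± 0.47 (edgeR adjusted p = 0.156), but its mean was under 1 CPM and it reached the count level in only 1 of the 3 Sox9f/f libraries. Col4a4 stayed under 1 CPM in the mean of either group, with a log2 fold change of -0.01 ± 0.36, and 0.09 without Sox9HKO replicate 12.

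Of the FACIT collagens, which decorate fibrils, 3 of 9 were tested, with a median of 0.42. Col14a1, the most abundant, had 99.1, 78.9 and 67.8 CPM against 106, 138 and 84.5 CPM. Those groups overlapped, and the log2 fold change was 0.42 ± 0.21 (edgeR adjusted p = 0.300). Col16a1 had 6.57, 4.16 and 3.94 CPM against 9.97, 9.62 and 5.56 CPM. Sox9HKO replicate 12 lay below Sox9f/f replicate 5, so the groups overlapped, with a log2 fold change of 0.78 ± 0.29 (edgeR unadjusted p = 0.0293, adjusted p = 0.209), and 1.001 without Sox9HKO replicate 12. Col12a1 had a log2 fold change of 0.28 ± 0.30.

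Col18a1, the multiplexin whose end fragment is endostatin, gave more counts than all other collagen genes together in 5 of the 6 libraries. It had 1096, 1132 and 954 CPM against 1037, 953 and 814 CPM, so the groups overlapped. Its log2 fold change was -0.18 ± 0.14 (edgeR adjusted p = 0.478). It overlaps Slc19a1 on the opposite strand. Col15a1, the other multiplexin, had a log2 fold change of -0.21 ± 0.27. Among the remaining tested members, Col13a1 (transmembrane) had 0.09 ± 0.17, Col7a1 (anchoring fibrils) 0.49 ± 0.54 and Col8a2 (short-chain network) 0.78 ± 0.50 on the log2 scale, and the last 2 were under 1 CPM.

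Summed collagen RNA differed less between the labels than the fibrillar sum did. All collagens together took 1718 ± 173 CPM in Sox9f/f and 1852 ± 230 CPM in the libraries labelled Sox9HKO (SD, n = 3 each), a ratio of 1.08 with overlapping groups. Without Col18a1 they took 657 ± 106 and 917 ± 129 CPM, a ratio of 1.40, and the ranges still overlapped, 577 to 777 against 773 to 1020 CPM. The makeup is better read per length, as a share of summed collagen FPKM (read fragments scaled by gene length and depth, as the authors deposited them). Fibrillar genes took 10.5%, 6.83% and 9.86% of it in Sox9f/f and 15.8%, 19.4% and 12.6% in the libraries labelled Sox9HKO. Col18a1 took 49.8% to 55.5% against 41.1% to 43.9%. Neither share overlapped between the labels, while the basement membrane share had means of 26.0% and 25.3%. Shares sum to a whole, so a higher share of one class is a lower share of another. With the longest annotated transcript as length in place of the one behind the deposited FPKM, the fibrillar share was 10.7%, 6.59% and 9.65% against 16.2%, 20.4% and 13.5%.

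**Figure D3:**
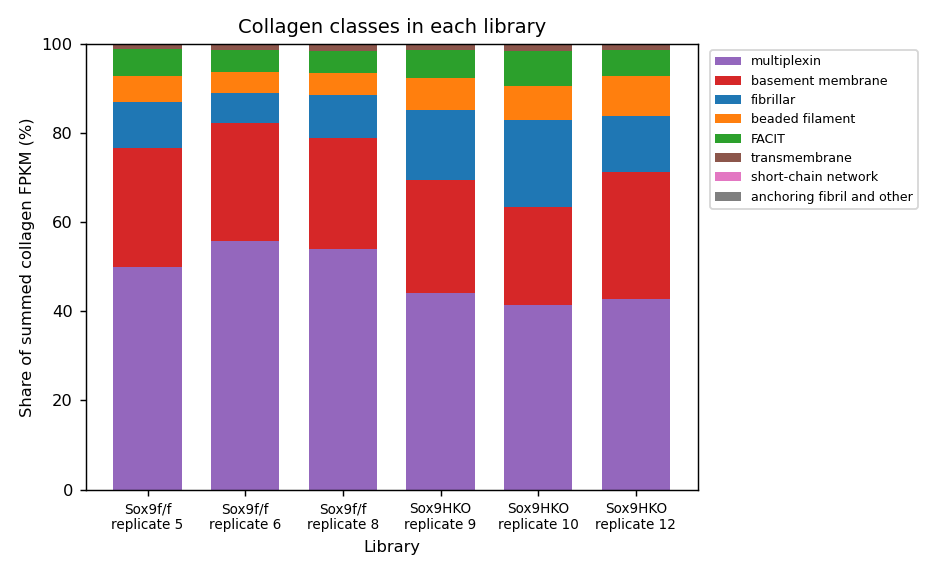
Share of summed collagen FPKM by class in each of the 6 libraries; each bar is 1 library and its segments add up to the whole. The fibrillar segment lay between 6.83% and 10.5% in Sox9f/f and between 12.6% and 19.4% in the libraries labelled Sox9HKO.

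Ratios of collagen chains within a library cancel depth. Col1a1 and Col1a2 encode chains of the same trimer, as do Col4a1 and Col4a2, while collagens I and III form separate trimers. The FPKM ratio of Col1a1 to Col1a2 was 1.64, 1.57 and 1.54 in Sox9f/f and 2.29, 2.02 and 1.94 in the libraries labelled Sox9HKO. The ratios did not overlap and differed by 0.39 on the log2 scale. Col3a1 to Col1a1 gave 1.43, 1.38 and 1.53 against 1.18, 1.29 and 1.27, a log2 difference of -0.21, again with no overlap. Both had an exact two-sided permutation p of 0.1, the smallest that 3 against 3 libraries can give, or 0.15 adjusted over the 3 ratios. For Col4a1 to Col4a2 the log2 difference was 0.08 (exact p = 0.6). The level of these ratios depends on gene length: the length behind the FPKM of Col1a2 was 16209 bases, 3.03 times its longest transcript of 5348 bases, and per kilobase of longest transcript Col1a1 to Col1a2 was 0.634, 0.607 and 0.594 against 0.884, 0.779 and 0.748. A fixed length cancels in the log2 difference between the labels, so the choice of length could not change it.

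**Figure D4:**
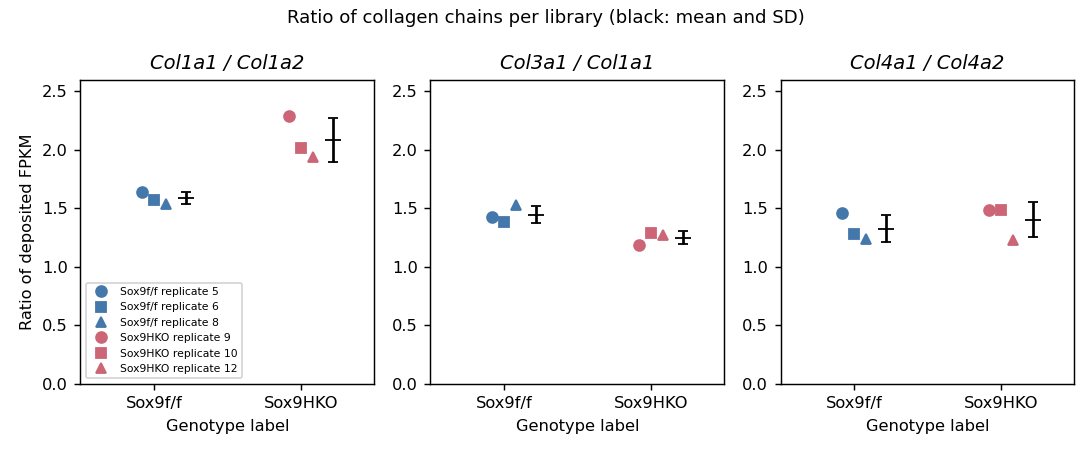
FPKM ratios of 3 pairs of collagen chains in each of the 6 libraries; points are single libraries, black marks are means with SD. Col1a1 to Col1a2 lay between 1.54 and 1.64 in Sox9f/f and between 1.94 and 2.29 in the libraries labelled Sox9HKO.

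The members were also read by library. Sox9HKO replicate 10 was the highest library in 12 of the 25 tested genes and replicate 9 in 7, while replicate 12 was the highest in 4 and the lowest in 5. Among the 9 fibrillar genes the lowest library was Sox9f/f replicate 6 in 6. Over the 25 genes, Sox9f/f replicates 5, 6 and 8 were the lowest library in 3, 8 and 9. Libraries within either label were therefore not alike in their collagens. Without Sox9HKO replicate 12 the number at an unadjusted p under 0.05 was 13 and the median log2 fold change 0.64. Further fold changes without it were 1.05 for Col5a2, 0.97 for Col27a1, 0.64 for Col6a1, 0.74 for Col6a2, 1.19 for Col6a3, 1.29 for Col4a5 and 1.34 for Col4a6 on the log2 scale. They were 0.57 for Col14a1, 0.51 for Col12a1, 0.22 for Col13a1, -0.10 for Col18a1 and 0.14 for Col4a1, Col15a1 came to -0.001, and Col4a2 turned to -0.02.

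Promoters are shown for 4 members whose window of 250 bases before the start held no annotated exon: Col3a1, Col5a1 and Col6a3, which were higher at an unadjusted p under 0.05, and Col5a3, which was not. The windows come from RefSeq (GRCm38.p6), whose promoter table matched 35 of the 44 members. Members with more than 1 listed start gave more than 1 window, 38 in all. Capitals mark 6 motifs on either strand: the CCAAT box, the TATA box core TATAAA, the GC box GGGCGG, the SMAD-binding core CAGAC, the SOX-binding core ACAATG and its variant form ACAAAG. No marked letters overlapped in these windows.
Col3a1, chr1:45311288-45311537, plus strand: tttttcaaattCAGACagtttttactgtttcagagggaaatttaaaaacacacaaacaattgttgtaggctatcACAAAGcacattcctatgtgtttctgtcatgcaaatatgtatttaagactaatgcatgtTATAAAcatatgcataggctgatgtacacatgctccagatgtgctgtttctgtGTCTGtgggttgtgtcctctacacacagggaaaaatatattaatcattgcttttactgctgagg
Col5a1, chr2:27886175-27886424, plus strand: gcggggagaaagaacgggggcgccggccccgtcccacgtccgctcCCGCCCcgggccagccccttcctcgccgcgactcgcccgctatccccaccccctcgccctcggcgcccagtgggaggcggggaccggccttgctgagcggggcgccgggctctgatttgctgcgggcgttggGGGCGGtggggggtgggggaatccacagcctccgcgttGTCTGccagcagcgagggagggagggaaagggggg
Col6a3, chr1:90843972-90844221, minus strand: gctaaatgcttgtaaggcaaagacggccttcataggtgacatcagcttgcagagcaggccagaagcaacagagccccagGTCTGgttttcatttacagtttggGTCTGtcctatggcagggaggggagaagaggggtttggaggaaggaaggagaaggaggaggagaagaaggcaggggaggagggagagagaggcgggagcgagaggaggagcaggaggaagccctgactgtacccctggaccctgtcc
Col5a3, chr9:20815068-20815317, minus strand: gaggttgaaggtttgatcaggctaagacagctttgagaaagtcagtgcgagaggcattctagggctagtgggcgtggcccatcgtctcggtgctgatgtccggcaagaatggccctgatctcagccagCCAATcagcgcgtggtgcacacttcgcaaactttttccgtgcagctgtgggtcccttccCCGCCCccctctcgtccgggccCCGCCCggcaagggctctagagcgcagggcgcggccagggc

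Over the 38 collagen windows, the SOX core was in 1 and its variant form in 4, against 10.7% and 16.5% of all 32851 windows of the same length. The SMAD core was in 17 (42.2% of all windows), the CCAAT box in 13 (33.8%), the TATA core in 5 (12.4%) and the GC box in 22 (32.7%). The Col3a1 window held the TATA core, the SOX variant and the SMAD core, and that of Col5a1 the GC box and the SMAD core. The Col6a3 window held only the SMAD core, and that of Col5a3 the CCAAT box and the GC box. Col27a1, also higher and with no exon in its window but not shown, held the GC box and the SMAD core. So did the Col6a2 window without an exon. Col4a6, also higher at an unadjusted p under 0.05 and with no exon, held the GC box but not the SMAD core. Among members not higher on that measure and with no exon, Col7a1 held the SMAD core. Col11a2, Col13a1, Col15a1 and Col24a1 did not. The 4 windows shown are examples, and whether motifs differ between higher and other members was not tested. A match is a run of letters and not a measured site.

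Genes for making, folding and cross-linking collagen had values on both sides. Of 33 listed genes 30 were tested. With p below 0.05 before adjustment, 8 had higher and 4 had lower values, with a median log2 fold change of 0.26. The 4 lower genes are 13.3% of those tested, near the 10.1% of all genes, and they numbered 1 with library-size scaling, 0 on log2(FPKM + 0.5), and 1 without Sox9f/f replicate 6 or 8. The higher ones numbered 5 without Sox9f/f replicate 8, and stand beside 9.74% of all genes. The 4 that DESeq2 called were all higher, and 3 of them are lysyl oxidases, which cross-link fibrils outside the cell. Lox had 1.42, 1.08 and 1.18 CPM against 2.95, 3.02 and 2.14 CPM, with a log2 fold change of 1.14 ± 0.27 (edgeR adjusted p = 0.144). Loxl1 had 1.18 ± 0.25 and Loxl2 0.89 ± 0.20 on the log2 scale, and Mia2, which helps load procollagen into secretory carriers, had 0.50 ± 0.11. The 4 lower genes, named here after their values were seen, were the prolyl hydroxylase subunits P4ha1 (-0.59 ± 0.20), P4ha2 (-0.53 ± 0.19) and P4hb (-0.35 ± 0.14), and the prolyl isomerase Ppib (-0.37 ± 0.11). P4hb and Ppib also act on other secreted proteins and had 4231 and 272 CPM in the Sox9f/f mean.

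Among receptors and fibril partners 14 of 16 were tested, 8 had higher and 0 had lower values with p below 0.05 before adjustment (9.74% and 10.1% of all genes), and the median was 0.58. DESeq2 called 5, and the 4 of smallest p were Mrc2, Sparc, Lum and Tnxb. Mrc2, a receptor that takes up collagen for degradation, had a log2 fold change of 1.14 ± 0.24. Sparc, which binds collagen, had 0.58 ± 0.14. Lum and Tnxb, which bind fibrils, had 0.86 ± 0.22 and 0.61 ± 0.17. Of the 9 degrading enzymes and inhibitors, all tested, 2 were higher and 0 lower on the same measure, with a median of 0.57. That median is the value of Mmp8 (0.57 ± 0.43), which had a mean under 1 CPM. Mmp8, and Itga11 among the receptors, reached the count level in only 1 of the 3 Sox9f/f libraries. Both may have entered through the group in which they were higher. The count of 2 was 4 with voom or without Sox9f/f replicate 5, and 1 without Sox9f/f replicate 6 or 8 or Sox9HKO replicate 10, so it is not read as a result about this list. The gelatinase Mmp2 had 12.5, 10.4 and 11.1 CPM against 22.6, 15.6 and 17.5 CPM, with no overlap and a log2 fold change of 0.72 ± 0.17 (edgeR adjusted p = 0.144; DESeq2 adjusted p = 0.0204). Mmp9 had 0.60 ± 0.24, and the inhibitors Timp2 and Timp3 had 0.24 ± 0.13 and 0.33 ± 0.20.

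Markers of the cells that make collagen were read beside these values, with single markers named after their values were seen. The summed level of 10 stellate cell markers was 475 to 591 CPM in Sox9f/f and 578 to 651 CPM in the libraries labelled Sox9HKO, which overlapped, with a median log2 fold change of 0.22. Ecm1 and Reln weighed most in the sum, with Sox9f/f means of 214 and 143 CPM. At an unadjusted p under 0.05 in edgeR, 3 were higher and 0 lower (9.74% and 10.1% of all genes). One was Lrat, the retinol-storing enzyme of stellate cells, with 29.9, 24.3 and 28.9 CPM against 44.5, 51.2 and 54.0 CPM, a log2 fold change of 0.85 ± 0.13. The others were Pdgfrb (0.64 ± 0.17) and Rgs5 (0.71 ± 0.24). Des had 0.03 ± 0.17, and Ecm1, the 1 marker below 0, had -0.08 ± 0.15. Acta2, the actin of activated stellate cells, had 0.17 ± 0.32. The 8 portal fibroblast markers summed to 106 to 123 against 137 to 191 CPM with a median of 0.52. On the same measure 3 were higher and 0 lower. Eln had the largest log2 fold change, 1.20 ± 0.22. Entpd2, the 1 marker below 0, had 19.1, 19.6 and 18.1 CPM against 16.7, 15.8 and 15.6 CPM, without overlap (-0.24 ± 0.12). Gas6 made up most of the sum, with means of 75.3 and 110 CPM. The 4 mesothelial markers summed to 2.15 to 3.85 against 4.90 to 5.41 CPM, with 4 of 4 above 0 (50.5% of all genes) and a median of 0.86. On the same measure 1 was higher, Wt1 (0.92 ± 0.38), and 0 lower. Their levels were low, and Msln had 0 CPM in Sox9f/f replicate 8. Msln and Upk3b reached the count level in only 1 of the 3 Sox9f/f libraries, so they may have entered through the group in which they were higher.

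Of the lists for other cell types, the sums of cholangiocyte and hepatocyte markers did not overlap between the labels, and those of the other 3 did. The 8 cholangiocyte markers, Sox9 among them, summed to 73.2 to 92.6 CPM against 152 to 258 CPM, with a median log2 fold change of 1.21 over the 7 tested. Spp1 made up most of this sum, with means of 46.7 and 128 CPM. Of the 7 tested, 5 were higher without overlap (12.2% of all genes). Krt19 (0.66 ± 0.40) and Krt7 (0.91 ± 0.40) overlapped, and Cftr had too few counts to be tested. The 8 macrophage markers summed to 390 to 462 against 430 to 853 CPM, with 8 of 8 above 0 (50.5% of all genes) and a median of 0.48. At an unadjusted p under 0.05 in edgeR, 1 of them was higher and 0 lower. That 1 is 12.5% of the list, near the 9.74% of all genes, and 10.1% of all genes were lower. The 8 hepatocyte markers summed to 96513 to 105341 against 80344 to 86027 CPM, with 0 of 8 above 0 and a median of -0.21. Of these, 3 were lower without overlap (14.3% of all genes), and Alb made up most of the sum, with means of 76715 and 60379 CPM. The 5 vascular smooth muscle markers, 3 of them tested, summed to 27.8 to 31.4 against 27.3 to 33.3 CPM and the 7 sinusoidal endothelial markers to 385 to 414 against 326 to 472 CPM. The part of these levels in the collagen values was not tested.

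**Figure D5:**
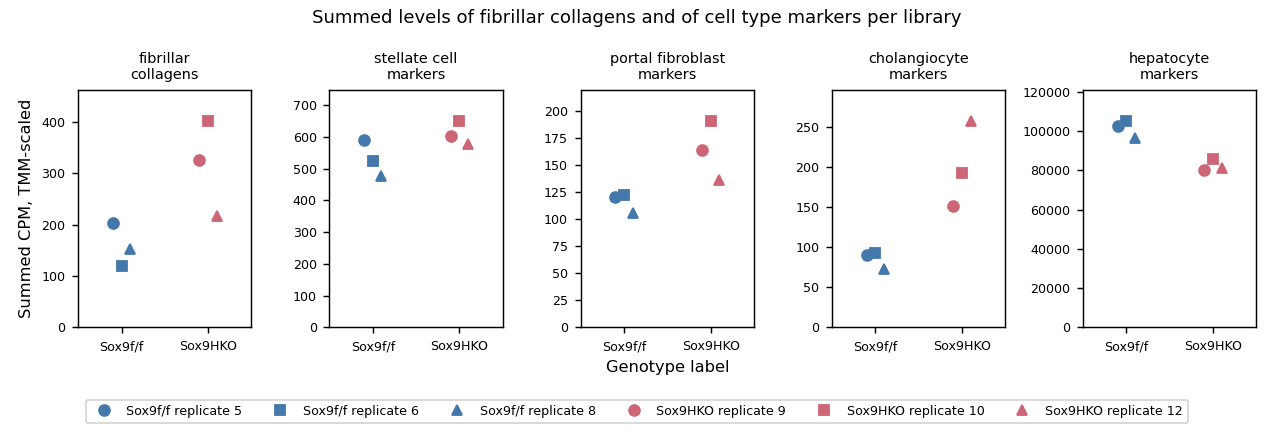
Summed CPM per library of the fibrillar collagens and of 4 cell type marker lists, each on its own axis from 0; points are single libraries. The stellate cell sums overlapped between the labels, while the cholangiocyte sums were 73.2 to 92.6 CPM in Sox9f/f and 152 to 258 CPM in the libraries labelled Sox9HKO, with replicate 12 highest there and lowest of its group in the fibrillar sum.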

How the data were processed

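RNA-seq of mouse liver gave 6 libraries, grouped by the genotype label (3 Sox9f/f, 3 Sox9HKO). Gene counts in whole numbers and FPKM values for each gene are, per the file headers, what the authors deposited in 1 table. FPKM equalled count over a fixed gene length and the library total to within 0.00841% over 9023 genes. HISAT2 2.0.4, StringTie 1.3.0 and the builds GRCm38.p4 and mm10 stand in the submitters' processing notes with no role stated, and the counter is not given in the sources.

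Counts of all 34745 genes were tested with edgeR 4.0.16 (R 4.3.3) using filterByExpr (minimum count 10), TMM scaling and its quasi-likelihood test (robust), with Benjamini-Hochberg adjustment and a threshold of 0.05. The filter kept 14137 genes. The biological coefficient of variation was 0.216. Standard errors came from the fold change and its F statistic, and CPM used TMM-scaled totals. Library-size scaling alone gave a median log2 fold change over all genes of 0.11. Alternatives were DESeq2 1.42.0, limma 3.58.1 (voom, and log2(FPKM + 0.5)), RLE, upper-quartile and library-size scaling, other filters, a length and GC correction, and each library left out. Scripts were tested on simulated data.

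Members and lists were chosen with earlier results of these data known. Collagens with a mean of at least 1 CPM and an unadjusted p under 0.05 are given in full (11 genes), others by value or range, and up to 4 members of each partner list by call or smallest p. The protein repeats that had been planned were read as codons of GENCODE M21 coding sequences, whose coordinates matched the deposited ones for 42 of 44 members.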

Additional observations from a re-analysis of the deposited data

How the results depend on the processing

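Depth and 3 libraries per group limit these results: members under 1 CPM had standard errors of 0.36 to 0.54 on the log2 scale. Genes called numbered 0 with edgeR, 605 with DESeq2, 10 without a filter and 0 to 3 with 1 library left out (3 without Sox9f/f replicate 5, 2 without Sox9HKO replicate 12). Collagens called were 9 with DESeq2 and 0 under every other alternative, and the number at an unadjusted p under 0.05 lay between 10 and 14. The collagen median of 0.69 was 0.214 with limma on log2(FPKM + 0.5), where the pseudocount compresses low genes and the median of all genes was 0.072, and 0.549 to 0.866 with 1 library left out. Collagens lower without overlap were 0, 1 with the length and GC trend removed, and 0 to 3 with 1 library left out (3 without Sox9HKO replicate 9, 1 without Sox9f/f replicate 8).

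Of 370 values for single collagens under 15 alternatives, 345 kept direction and call, 9 gained a call (all with DESeq2) and 16 reversed. The reversals fell in 7 genes whose difference in the main fit was smaller than its standard error. In Col12a1 (0.28 ± 0.30) and Col11a2 (0.43 ± 0.47) it was only slightly smaller. The cause was not tested. Col4a4 (-0.01) was 0.114 with voom, 0.043 with upper-quartile scaling, 0.101 with library size only, 0.012 on FPKM, and -0.163 to 0.228 with 1 library left out (0.228 without Sox9f/f replicate 5, 0.040 and 0.086 without Sox9HKO replicates 9 and 12). Col4a2 was -0.030 with the length and GC trend removed and -0.059 to 0.113 with 1 library left out, reversing without Sox9f/f replicate 8 (-0.059), Sox9HKO replicate 9 (-0.003) and replicate 12 (-0.021). Reversals with 1 library left out were Col4a1 -0.031 (without Sox9f/f 8; range -0.031 to 0.227), Col12a1 -0.101 (without Sox9HKO 9; -0.101 to 0.509), Col13a1 -0.062 (without Sox9HKO 10; -0.062 to 0.217), Col5a3 0.129 (without Sox9HKO 12; -0.751 to 0.129) and Col11a2 -0.185 (without Sox9HKO 12; -0.185 to 0.672). The ratio of summed collagen CPM was 1.02 to 1.16 with 1 library left out. The length of the longest transcript was an alternative chosen after seeing the data. It is no check of the log2 differences of the chain ratios, because a fixed length cancels in them. No paired analysis was possible because the groups share no replicate numbers.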
